A study of Mus musculus with 2 samples.

Results

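The genes of the G1 cyclins, their kinases and the inhibitors of those kinases were described in total RNA of mouse spleen. Of the D cyclins, Ccnd3 gave a strong signal, at 1859 ± 143 intensity units, Ccnd1 lay just above the brightness cutoff at 427 ± 65.8, and Ccnd2 lay below it at 203 ± 12.7 (mean ± SD over n = 2 arrays, here and below). Among the inhibitors linked to quiescence, Cdkn2c gave 792 ± 3.39 and Cdkn1a gave 595 ± 27.0, both bright, whereas Cdkn1b gave 112 ± 2.83, close to the highest bacterial background control. Ccnd1 and Cdkn1a each had a second, dim probe set, at 179 ± 80.7 and 145 ± 60.9, and neither gene was bright with its probe sets averaged or with a cutoff at the 75th percentile. Cdk4 and Ccne1 were bright at 1835 ± 116 and 878 ± 16.4. The 10 genes were listed by name, and all probe sets whose platform annotation names one of them alone were taken. This gave 14 probe sets for 9 of the genes, out of 10833 probe sets that name a single gene and 8251 named genes in all. For Cdk6, which like Cdk4 binds D cyclins, no probe set was named in the annotation, so its signal was not analysed here.

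The RNA was bought from Clontech as spleen total RNA of a single catalogue number and hybridised to 2 oligonucleotide arrays, called array 1 and array 2 after their titles. Both arrays belong to 1 group with no treatment or control, and the labels give no strain, age, sex or number of animals. They also do not say whether the arrays shared a tube or a labelling reaction, so the spread between them may be technical. No p-value was computed.

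Cyclins of the D class are made in response to mitogens and bind Cdk4 or Cdk6, and these complexes phosphorylate the retinoblastoma protein and release E2F transcription factors. E2F factors switch on cyclin E, which binds Cdk2 and carries the cell into S phase. Inhibitors form a pair of families: Cdkn2c belongs to the INK4 proteins, which bind Cdk4 and Cdk6 alone, while Cdkn1a and Cdkn1b belong to the CIP/KIP proteins, which bind cyclin-kinase complexes and block Cdk2. The spleen holds resting lymphocytes together with dividing germinal centre and erythroid cells, and Ccnd2 and Ccnd3 are the D cyclins best known from lymphocytes.

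Signals were judged against their own array. A probe set was called bright when its intensity exceeded the 60th percentile of all probe sets that are not controls, 346 on array 1 and 342 on array 2, on both arrays. The highest of 15 probe sets for the bacterial transcripts dap, lys, phe, thr and trp, foreign to mouse, marked the background. It was 95 on array 1 and 76.2 on array 2. This takes none of these transcripts to have been added to the sample, which was not checked. Probe sets of different sequence capture their targets unequally, so no gene's level is ranked against another's. In a whole organ, fewer cells of a type and less RNA per cell cannot be told apart. The markers listed for the tissue were bright in all measured cases: 4 of 4 for B cells, 3 of 3 each for T cells, macrophages and neutrophils, and 2 of 2 for erythroid cells. Of all 8251 named genes, 45.2% passed the same cutoff. All 4 pancreatic acinar markers were bright as well, with means between 4949 and 24153, and of 4 markers of other tissues Alb was bright at 2384 ± 302, while Umod, Snap25 and Acta1 lay between 6.85 and 79.4. The part of pancreatic RNA in the signals below was not tested.

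The D cyclins differed in how clearly they were detected. Ccnd3, with the single probe set 160545_at, gave 1960.1 on array 1 and 1757.5 on array 2. Both values were more than 5 times the brightness cutoff of their array, with ratios of 5.66 and 5.14. Of the 12422 probe sets that are not controls, 93.1% lay below it on array 1 and 92.2% on array 2. Ccnd3 stayed bright under every alternative tried.

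Ccnd2, also known as a D cyclin of B lymphocytes, was read by the single probe set 97504_at. It gave 194.1 on array 1 and 212 on array 2, which is 0.560 and 0.619 of the cutoff. The arrays matched closely here, with 46.4% and 48.4% of probe sets lying below it. Its signal stood above the bacterial controls, at 2.04 and 2.78 times their highest value, so it was detected near the middle of the array and was not bright on either one. It stayed below the cutoff with brightness set at the 50th percentile.

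Ccnd1, the D cyclin of many epithelial and stromal cells, was read by 2 probe sets that gave different answers. Probe set 94232_at gave 380.1 and 473.1 on arrays 1 and 2 and was bright, with 62.3% and 68.1% of probe sets below it. Probe set 94231_at gave 235.6 and 121.5 and was bright on neither array. Its log2 difference, array 2 minus array 1 and centred so that bright probe sets have a median of 0, was -0.95, while that of 94232_at was 0.32, so the 2 probe sets of the same gene moved in opposite directions between the arrays. With the mean over both probe sets the weaker ratio to the cutoff fell to 0.701, against 1.10 for 94232_at alone, and Ccnd1 was no longer bright. Ccnd1 was therefore detected above background by both probe sets, and its place relative to the brightness cutoff rests on the choice of probe set.

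**Figure D1:**
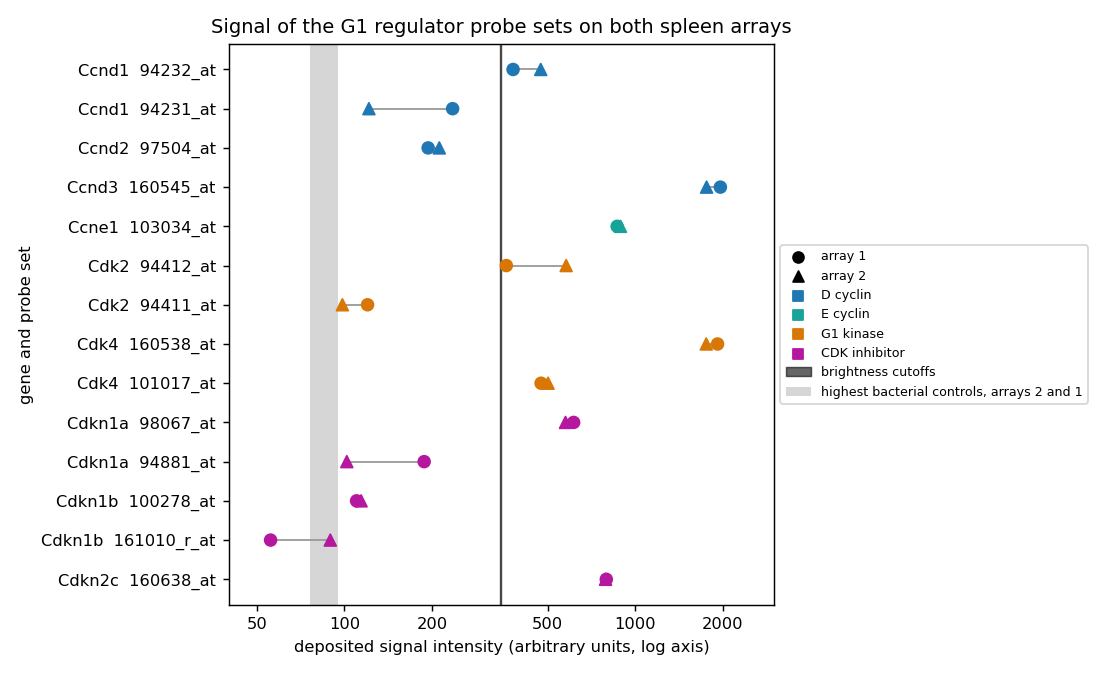
Deposited signal intensity on a log axis for each of the 14 probe sets, with circles for array 1, triangles for array 2 and a line joining them, coloured by role. The vertical line marks the brightness cutoffs of 346 and 342, and the grey band spans the highest bacterial controls of 76.2 and 95. Ccnd3 and Cdk4 160538_at sit near the right edge, and both Cdkn1b probe sets sit at or near the grey band.

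Cyclin E and its kinase came next in the pathway. Ccne1, probe set 103034_at, gave 866 on array 1 and 889.2 on array 2 and was bright, at 2.50 and 2.60 times the cutoff. Its values differed by a log2 difference of 0.04, and 81.4% and 82.0% of probe sets lay below it. Cdk2, the partner of cyclin E, was bright by probe set 94412_at, which gave 360.4 on array 1 and 578.5 on array 2. Array 1 passed the cutoff by a small margin, with a ratio of 1.04, against 1.69 on array 2. The other Cdk2 probe set, 94411_at, gave 120.2 and 98.5 and was not bright, only 1.27 and 1.29 times the highest bacterial control. As for Ccnd1, the mean over both probe sets left Cdk2 below the cutoff, at 0.601 of it.

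Cdk4, the kinase that D cyclins activate, was bright by both of its probe sets. Probe set 160538_at gave 1916.9 on array 1 and 1753 on array 2, and 101017_at gave 474.4 and 501.3. Of all probe sets, 92.9% and 92.2% lay below the first, and 67.7% and 69.6% below the second. Cdk4 was the only member with 2 probe sets that were both bright. It stayed bright with the mean over both, at 2.74 times the cutoff.

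Cdk4 is known as a target of Myc, which binds the E box CACGTG with its partner Max, and its promoter is shown because the Myc and Max genes are among the related genes described below. The RefSeq promoter table of GRCm38.p6 held 11 windows for 8 of the 10 genes, each running from 250 bases before to 50 bases after a start site. Ccnd1 and Ccnd2 are named only. The bases before the start site of Cdk4 lie at chr10:127063285-127063534 on the + strand, with every CACGTG in capitals.
Cdk4: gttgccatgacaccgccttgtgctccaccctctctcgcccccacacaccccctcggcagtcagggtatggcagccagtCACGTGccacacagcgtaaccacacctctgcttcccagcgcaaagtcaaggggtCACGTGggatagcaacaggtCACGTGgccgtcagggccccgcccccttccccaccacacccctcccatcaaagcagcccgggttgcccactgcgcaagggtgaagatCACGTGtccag

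The letters CACGTG, which read alike on both strands, occur 4 times in this window, and 8 of 32851 promoter windows, 0.0244%, hold at least 4. At least 1 was found in 7.15% of all windows, and in 1 window each of Cdk6 and Cdkn2c besides Cdk4. The E2F letters TTTCCCGC or TTTGGCGC, searched on both strands, were found in 1.56% of all windows and in that of Cdk2 alone among these genes. None of these 11 windows holds both kinds of letters. Such matches describe the sequence, and binding was not measured here.

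The quiescence inhibitors split into bright and dim genes. Cdkn2c, encoding p18INK4c, gave 794.8 on array 1 and 790 on array 2 with probe set 160638_at. These values were 2.29 and 2.31 times the cutoff, and the log2 difference of -0.01 was the closest match between the arrays among the 14 probe sets. Cdkn2c was bright under every alternative tried, including the 75th percentile, where its ratio to the cutoff was 1.24.

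Cdkn1a, encoding the p53-induced inhibitor p21, gave 613.8 and 575.6 with probe set 98067_at and was bright on both arrays. Its other probe set, 94881_at, gave 188.1 on array 1 and 102 on array 2, below the cutoff on both and 1.84-fold apart. With the mean over the 2 probe sets Cdkn1a fell to 0.708 of the cutoff, and with brightness set at the 75th percentile it fell to 0.909 of it.

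Cdkn1b, encoding p27Kip1, which is abundant as a protein in resting lymphocytes, gave weak signals with both of its probe sets. Probe set 100278_at gave 110.2 on array 1 and 114.2 on array 2, 1.16 and 1.499 times the highest bacterial control. Probe set 161010_r_at, whose suffix marks relaxed probe selection, gave 55.8 and 89.5 and lay below that control on array 1. On array 1, 34.8% and 24.1% of probe sets lay below these 2, and on array 2, 35.5% and 31.2%. With the mean over both, Cdkn1b was the single member that no longer exceeded the bacterial controls on both arrays. The arrays give RNA signal alone, and a probe set near background does not show that the transcript was absent.

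Counted together, 7 of the 9 genes with a value passed the brightness cutoff, as did 45.2% of all 8251 named genes, and all 9 exceeded the highest bacterial control on both arrays, against 73.9%. The 7 were 2 of 3 D cyclins, the 1 E cyclin, 2 of 2 measured kinases and 2 of 3 inhibitors, and Ccnd2 and Cdkn1b were the others. Counted by probe set, 8 of 14 were bright, against 38.9% of single-gene probe sets. The median log2 level of the 9 genes was 9.22, against 8.29 over all named genes. Each gene was read by its brightest probe set, which raises genes with several of them. Of the 5 members with 2 probe sets, 3 had 1 bright and 1 dim probe set, Ccnd1, Cdk2 and Cdkn1a, against 38.9% of the 1675 genes with exactly 2. With the 75th percentile as the cutoff 4 members were bright, Ccnd3, Ccne1, Cdk4 and Cdkn2c, against 28.5% of all named genes. When probe sets were averaged by gene at the main cutoff, the same 4 of 9 were bright, against 37.96%.

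Of the 14 probe sets 7 were higher on array 2 and 7 on array 1, and none was more than 2-fold apart. Neither share was computed over all probe sets. A gap above 1.5-fold was seen in 4 of 14, against 13.2% of all single-gene probe sets. They were Ccnd1 94231_at, Cdkn1a 94881_at and Cdkn1b 161010_r_at, all dim, and the bright Cdk2 94412_at, which was 1.61-fold higher on array 2. Among bright probe sets, 1 of 8 members differed this much, against 1.52% of all bright single-gene probe sets. The share at the signal level of Cdk2 94412_at is given below.

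To place these gaps, all probe sets other than controls were ordered by mean signal and cut into 4 equal groups. The pooled SD of log2 signal was 0.142 in the brightest group, which holds Ccnd3, Ccne1, Cdk4 160538_at and Cdkn2c. It was 0.234 in the next group, which holds Cdk2 94412_at, Ccnd1 94232_at, Cdk4 101017_at and Cdkn1a 98067_at. In that group 6.36% of single-gene probe sets were more than 1.5-fold apart. The pooled SD was 0.496 in the group after that, with the 6 remaining probe sets. There 30.9% of single-gene probe sets were more than 1.5-fold apart. The difference of 0.68 for Cdk2 94412_at was the only one of the 14 beyond 2 times the SD that its group's spread gives for a difference. The share of all probe sets beyond that limit was not computed. The pooled SD of the 8 bright member probe sets was 0.198 on the log2 scale, against 0.153 for all bright single-gene probe sets, and 0.106 with Cdk2 94412_at left out.

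**Figure D2:**
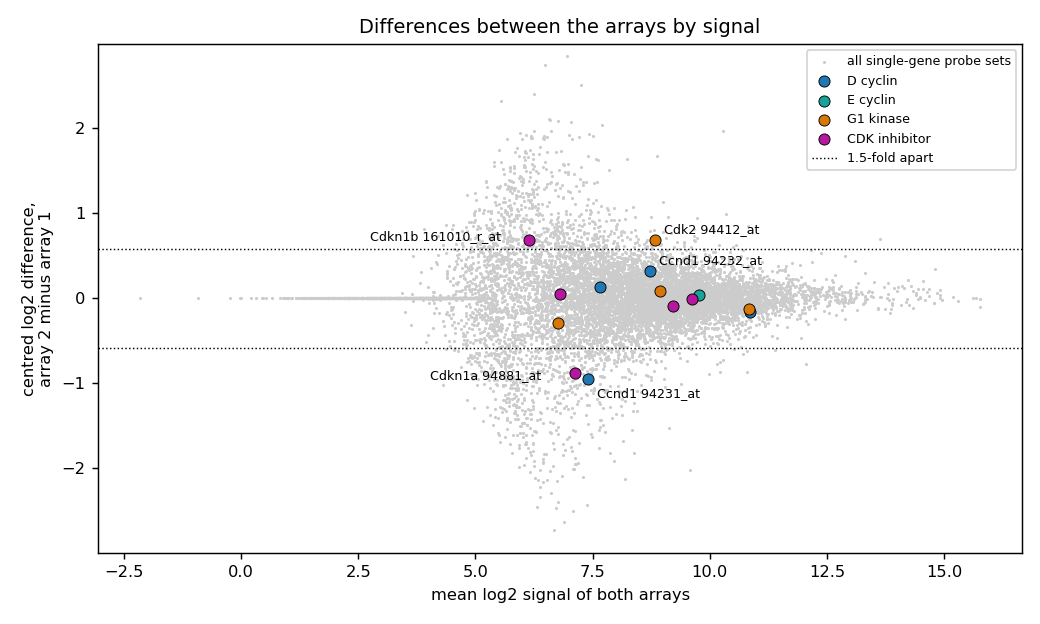
Centred log2 difference, array 2 minus array 1, against the mean log2 signal of both arrays for all 10833 single-gene probe sets in grey and for the 14 G1 regulator probe sets in colour by role. Dotted lines mark 1.5-fold, and values under 41.8 were raised to it for the difference, which sets the dimmest probe sets on a line near 0. The 4 members beyond the lines are Cdk2 94412_at, Ccnd1 94231_at, Cdkn1a 94881_at and Cdkn1b 161010_r_at, and the strongest members lie near 0.

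Related genes of the pathway were counted from 10 lists, with 58 of 85 measured genes bright and a median log2 level of 9.23, against 45.2% and 8.29 over all named genes. The same 45.2% is the share to set beside the count of each list below, and no list was tested. The lists held 113 genes, and those without a probe set naming them alone were not measured. Of 5 other genes with Cdkn symbols, listed as other CDK inhibitors, 1 was bright, the INK4 gene Cdkn2d, at 1239.5 and 1170.8. Cdkn1c gave 109.5 and 64.2, Cdkn2a 45.6 and 107.1, and Cdkn2b 27.7 and 30.6 on arrays 1 and 2, and Cdkn3 was not bright either, at 254 ± 15.0. Together with the members, bright inhibitors were thus Cdkn1a, Cdkn2c and Cdkn2d. Among the pocket proteins, which D cyclin kinases phosphorylate, and the E2F factors that these bind, 2 of 7 were bright: Rbl1 (p107) at 496 ± 69.9 and the E2F partner Tfdp1 at 1549 ± 470, read by a relaxed probe set. Rb1 itself gave 311 ± 10.8 and Rbl2 (p130) gave 169 ± 18.9. E2f1, E2f3 and E2f5 were not bright, with means between 58 and 239. E2f2, E2f4, E2f6 and Tfdp2 were listed but not measured.

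Of the genes that switch CDKs by phosphorylation 3 of 6 were bright: Mnat1, Cdc25a, the phosphatase that activates Cdk2, at 513 ± 19.6, and the chaperone Cdc37, which folds Cdk4, at 1620 ± 170. Cdk7, the CDK-activating kinase, gave 161 ± 3.61, and Mnat1, its assembly factor, gave 532 ± 198. The phosphatase Cdc25c, at 408.7 and 254.7, passed on array 1 alone, and the inhibitory kinase Wee1, at 137 ± 6.65, was not bright. Of the genes for ubiquitin-dependent turnover of G1 regulators 7 of 8 were bright. They included Skp1 at 1195 ± 191, Cks1b, the cofactor through which p27Kip1 is recognised for degradation, at 1195 ± 36.4, and Cks2 at 1812 ± 61.8. Fbxw7, the receptor for cyclin E, was not bright at 228 ± 5.80.

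Most genes measured for S phase and for the later cyclins and mitotic kinases were bright. Of the S phase genes under E2F control 10 of 12 were bright, with Pcna at 3278 ± 203, Mcm2 at 1095 ± 26.2 and Mcm3 at 1167 ± 29.6. The 2 others were Mcm6 at 17.4 ± 8.77 and the second E cyclin, Ccne2, at 53.4 ± 10.3, whereas Ccne1 was bright. Of the later cyclins and mitotic kinases 8 of 9 were bright, with Ccna2 at 1836 ± 216 and Ccnb2 at 3749 ± 457. Ccna1, the germ cell cyclin A, gave 15.4 ± 11.9.

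Of the Myc and Max network 5 of 9 were bright. Myc passed the cutoff by a small margin at 354.7 and 404.2, and its partner Max, at 1139 ± 78.8, Mxd3, Mxd4 and Mxi1 were bright too. Mycn gave 19.8 and 52.7, and Mycl gave 285 ± 33.9, and neither was bright. Mxd1, at 84.4 ± 74.2, and Mnt, at 317.7 and 364.4 and so above the cutoff on array 2 alone, were not bright either. Of the antiproliferative and quiescence genes 11 of 12 were bright, with Btg1 at 3117 ± 215, Btg2 at 2700 ± 258 and Tob1 at 474 ± 34.2, and Klf4 was the exception at 143 ± 17.1. Of the p53 targets, to which Cdkn1a belongs, 4 of 6 were bright, with Mdm2 at 499.95 ± 115, Gadd45a at 744 ± 24.2, Sesn1 at 2446 ± 80.2 and Plk2 at 449 ± 49.8. Zmat3, at 322.6 and 491.5, was above the cutoff on array 2 alone, and Phlda3, at 266 ± 51.5, was not bright. Of the cyclins and CDK family kinases outside G1 control 7 of 11 were bright, with Ccng2 at 1101 ± 52.6, while Ccnc and Ccng1 gave 332 ± 18.1 and 269 ± 43.5 and were not, nor were Cdk14 and Cdk18.

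**Figure D3:**
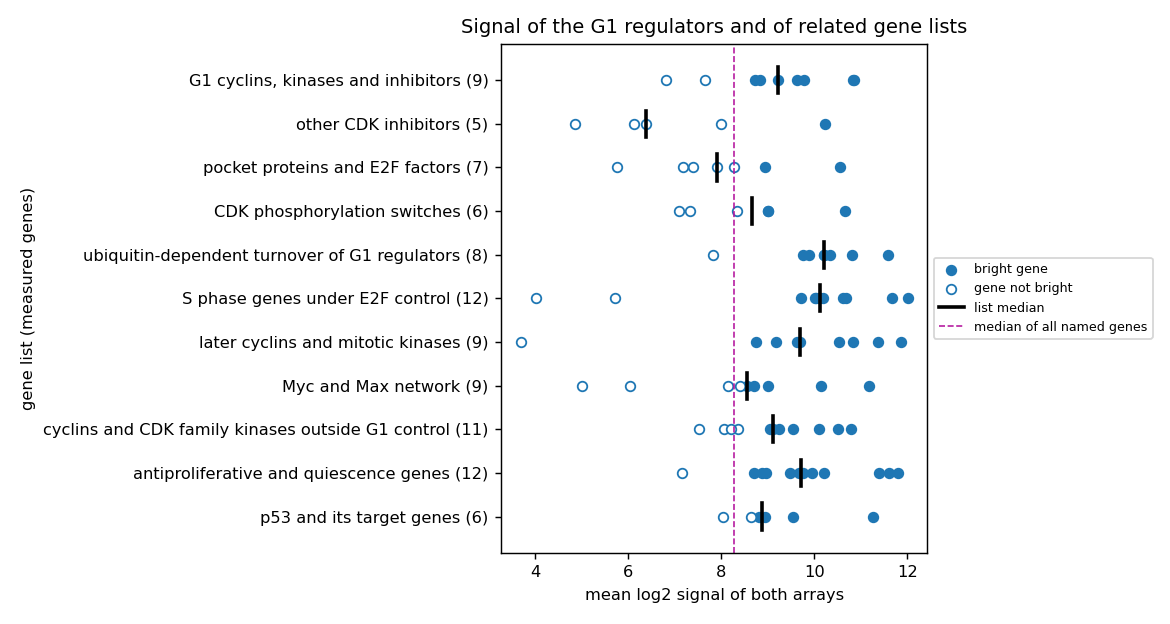
Mean log2 signal of both arrays for each measured gene of the G1 regulators (top) and of the 10 related lists, with the number of measured genes in brackets. Filled points are bright genes, open points are not, black bars are list medians, and the dashed line is the median of all named genes at 8.29. The medians of the other CDK inhibitors, 6.39, and of the pocket proteins and E2F factors, 7.90, lie left of that line.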

How the data were processed

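Spleen RNA was measured on 2 arrays of 1 group. The deposited table lists a linear intensity for every probe set on each array, without detection calls. The sources used here do not name the authors' software. The columns had trimmed means (2% cut at each end) of 497 and 496, and no source used here says whether they were scaled to each other. They were used as deposited. Precision is limited by the number of arrays. The 66 control probe sets stayed out of percentiles and counts. Gene names came from the platform annotation, and all 14 member probe sets matched the RefSeq gene table of GRCm38.p6 by gene ID and symbol. Probe sets that name several genes (396) or none (1193) were left out, and 0 of those with several named a member. For differences, log2 values were taken after raising those under the 20th percentile of an array, 41.8 on both, to it.

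Each gene was represented by its probe set of highest mean log2 level. All 10 members were named, and of each list the first 3 measured genes, with others named where a count was 5 or fewer. The members, lists and cutoffs were chosen with earlier results of these data known. The pooled SD was tested on simulated data with the same SD at every signal level, without the floor and without selecting bright probe sets. Its use over bright probe sets or by signal group was not tested. Alternatives changed 1 choice at a time: the brightness cutoff, each array alone, the mean over probe sets, probe sets with a multi-target or relaxed suffix left out (_s_at, _x_at, _f_at, _g_at, _i_at, _r_at), the background control, quantile normalization, a pseudocount of 16 and no centring. Leaving out Cdk2 94412_at was added after the data were seen. Python 3.11.15, numpy 2.4.6, pandas 2.3.3 and matplotlib 3.10.9 were used.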

Additional observations from a re-analysis of the deposited data

How the results depend on the processing

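The count of bright members, 7 of 9, was 7 on each array alone and with the 50th percentile as the cutoff. Of all named genes, 47.6% passed on each array alone and 55.7% with the 50th percentile. Without probe sets of a multi-target or relaxed suffix the count was 7 as well, and 43.4% of the 7660 genes left passed. The count became 4 with the 75th percentile, which 28.5% of all named genes passed, and 4 with probe sets averaged within a gene, where 37.96% passed. Under both settings bright D cyclins became 1 and bright CDK inhibitors became 1, because Ccnd1 and Cdkn1a, and Cdk2 among the kinases, fell below the cutoff. Bright member probe sets became 4 of 14 with the 75th percentile. For that cutoff the share was computed over genes alone, 28.5%, and not over probe sets. Members above the bacterial controls ranged from 8 to 9 of 9. The bright genes of the 10 related lists, 58 of 85, ranged from 42 with the 75th percentile to 69 with the 50th, in step with the shares of all genes above, and were 53 of 81 without suffixed probe sets. The pooled SD of bright member probe sets, 0.198, was 0.0759 with the 75th percentile, 0.321 over all 14 member probe sets with the floor, and 0.106 without Cdk2 94412_at. It ranged from 0.191 to 0.205 with quantile normalization, a pseudocount or no centring. The brightness call of a single member held in 48 of 54 settings, and the 6 exceptions were those of Ccnd1, Cdk2 and Cdkn1a given above. The log2 difference of Cdkn2c, -0.01, was -0.02 with quantile normalization. No paired analysis was possible because there is only 1 group. Dim probe sets limit the statements on Ccnd2 and Cdkn1b, and none of these results has a test.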
